A study of Mus musculus with 30 samples.

Results

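Chondroitin sulfate and hyaluronan are made by a small set of enzymes, and 10 of their genes were followed here among the 20321 genes of the count table. The 10 genes, Xylt1, Csgalnact1, Chsy1, Chpf, Chst3, Chst11, Vcan, Has1, Has2 and Has3, were chosen by gene symbol, with earlier results of these same data in view, so that what is given for them over time is a description and not independent evidence. All 10 were found in the table and all 10 passed the filter on low counts, with 13793 genes tested in all.

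RNA-seq libraries were made from digit 3 of the hindlimb of 30 mice, 1 library per mouse, after surgical removal of at most 33% of its distal phalanx (P3), an amputation that regenerates. The mice were adult C57Bl/6 males of 9 to 10 weeks with no genetic change or drug, all were amputated, and no unamputated digit was among the libraries. Mice were collected on the first day at 0 h, 3 h, 6 h, 12 h or 24 h after amputation, or later at 3 d, 7 d, 14 d or 21 d. There were 3 mice per time point and 6 at 7 d, and each mouse gave 1 time point only. The 0 h mice, collected directly after amputation, are the reference for each later time point, and the 8 comparisons share these 3 mice.

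Chondroitin sulfate chains are built on a serine of a core protein, by a linker sugar chain, alternating sugars and then sulfate groups, and versican is one of the core proteins that carries them. Hyaluronan is a chain of the same kind without a core protein or sulfate, spun out at the cell membrane by synthases, and versican binds it to form a hydrated, loose matrix. Such matrix is known from embryonic limb mesenchyme, from cartilage and from healing skin.

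The libraries held between 3167625 and 16277816 expected counts. Levels between mice are given as CPM (the count as a share of the library, TMM scaled), and levels between genes as TPM (a share of all transcripts, which takes account of gene length). The titles of the libraries carry dates of 2 periods, July to August (16 mice) and November to January (14 mice), and what the date marks is not given in the sources used here. The 3 h and 12 h mice all had July to August titles, the 21 d mice all had November to January titles, and the other 6 time points held both. The median total count was 5083528 in the first period and 9836324 in the second. A single library, 7 d replicate 3, a left foot with a November to January title, held reads for only 12191 genes, against 12945 to 15538 in the others, and a result that rests on it is given with and without it. RNA of the whole digit tip was measured, so that fewer cells of a type and less RNA per cell cannot be told apart.

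Over the 9 time points, 5 of the 10 genes changed. These were Chst11, Chsy1, Csgalnact1, Has2 and Vcan, with adjusted p of 3.38e-05, 8.05e-05, 0.0121, 0.0213 and 0.0320 in edgeR's quasi-likelihood F-test with Benjamini-Hochberg adjustment over all genes. The same test called 9.01% of all genes. Has3 (adjusted p = 0.138), Chpf (0.187), Chst3 (0.196), Has1 (0.270) and Xylt1 (0.971) did not pass, although 8 of the 10 had an unadjusted p under 0.05. DESeq2's likelihood ratio test also called 5, and they were the same genes. It called more of all genes than edgeR did (closing section), so the share above is not its background.

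**Figure D1:**
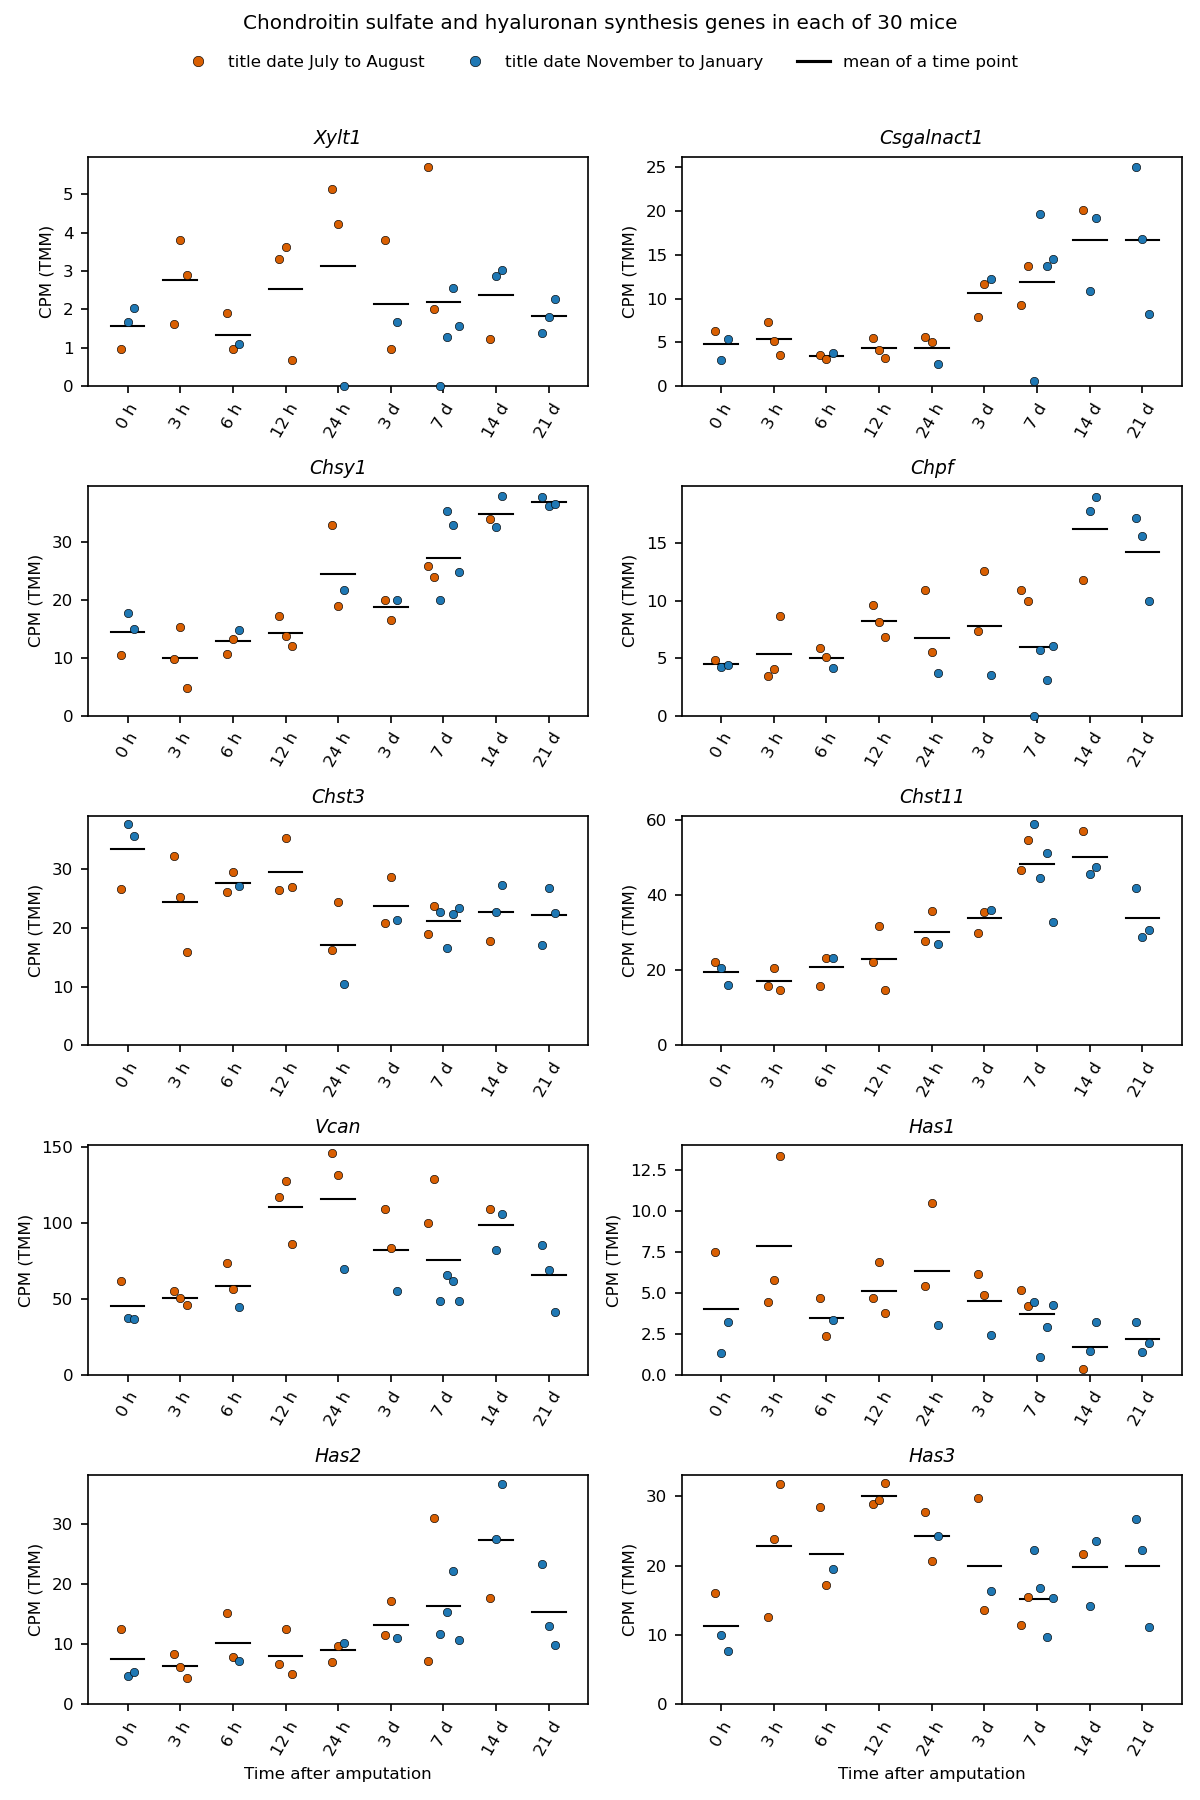
Level of each of the 10 genes in CPM (vertical axis, from 0) in each of the 30 mice (points, coloured by the period of the title date) at 9 time points after amputation (horizontal axis, not to scale), with black lines at the mean of a time point. Chsy1 sits between 32.6 and 38.0 CPM in the 6 mice at 14 d and 21 d, and Vcan points of November to January lie under those of July to August at each of the 6 time points that hold both.

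Against 0 h, the first passing gene appeared at 7 d, the time point with 6 mice against 3 at the others. The gene, Chst11, had a log2 fold change of 0.79 ± 0.25 (SE) at 3 d (edgeR adjusted p = 0.247) and 1.30 ± 0.22 at 7 d. The first call therefore does not date an onset. edgeR called 0 of 10 at 3 h (all genes 0.254%), 0 at 6 h (0.189%) and 0 at 12 h (0.167%), then 0 at 24 h (0.493%) and 0 at 3 d (0.551%). In that order 1, 1, 2, 5 and 3 of the 10 had an unadjusted p under 0.05. DESeq2 called Has3 and Vcan at 12 h, Vcan at 24 h and 0 of 10 at the other 3 early time points. The share of all genes that DESeq2 called at these time points is not given here, so its calls stand without a background. At 7 d edgeR called 1 of 10 (Chst11; all genes 2.34%), at 14 d 3 of 10 (Chst11, Chsy1 and Has2; all genes 1.61%) and at 21 d 1 of 10 (Chsy1; all genes 1.94%), all higher than at 0 h. Over the 10 genes the median log2 fold change against 0 h was 0.17 at 3 h, -0.04 at 6 h and 0.30 at 12 h. It came to 0.65 at 24 h, 0.79 at 3 d, 0.60 at 7 d and 0.82 at 21 d and was highest at 14 d. That of all genes was between -0.01 and 0.01, where TMM scaling holds it by design, so it is no contrast for the 10 genes.

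**Figure D2:**
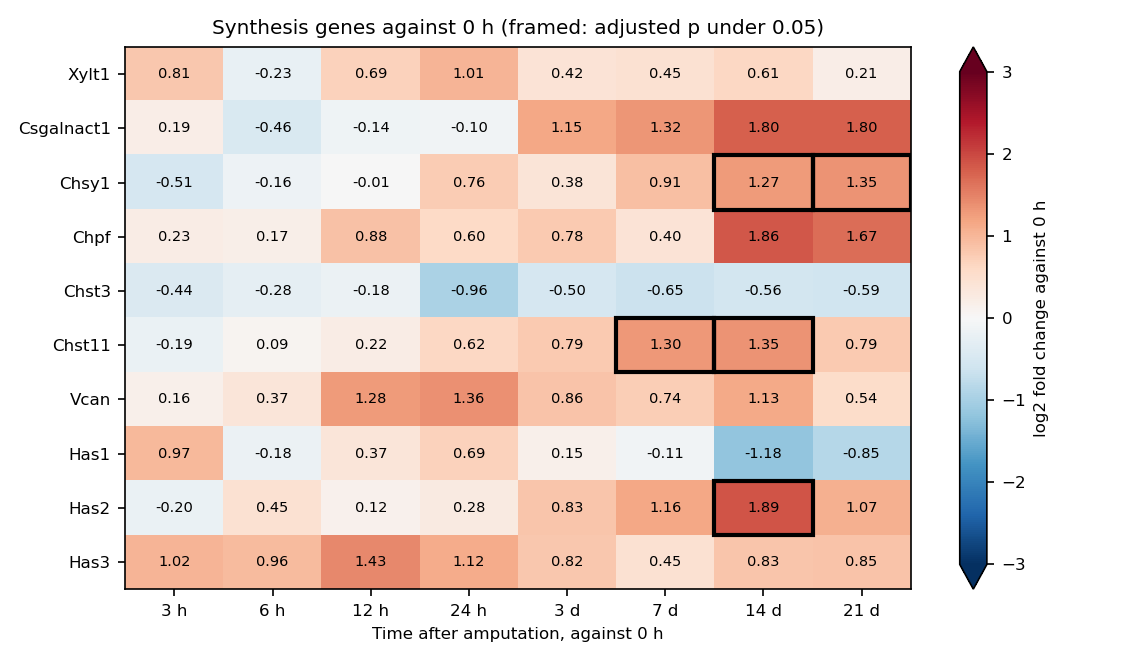
Log2 fold change against 0 h (colour and printed number) of the 10 genes (rows) at 8 later time points (columns), from the edgeR fit of all 30 mice, with a frame where the adjusted p was under 0.05. Frames stand at Chst11 for 7 d (1.30) and 14 d (1.35), Chsy1 for 14 d (1.27) and 21 d (1.35) and Has2 for 14 d (1.89).

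No step from one time point to the next was called for any of the 10 genes. This was so for edgeR in all 70 tests of 7 steps, with 8 at an unadjusted p under 0.05, and for DESeq2. Of all genes, 0.160% were called at 6 h against 3 h, 0% at 12 h against 6 h, 0% at 24 h against 12 h, 0.0653% at 3 d against 24 h, 0.0145% at 7 d against 3 d, 0.435% at 14 d against 7 d and 0% at 21 d against 14 d. The rises below are therefore read against 0 h, and the time between 2 samplings at which a gene moved was not resolved.

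Chain initiation was represented by Xylt1 and Csgalnact1. Xylt1 (ENSMUSG00000030657; GRCm38 chr7:117380979-117673580, plus strand) encodes a xylosyltransferase that puts the first sugar of the linker on the core protein. It was the scarcest of the genes, with a mean of 1.53 TPM over the mice, 0 to 35 reads in a library and 0 reads in 24 h replicate 3 and 7 d replicate 3, where 3 reads would be 0.701 and 0.554 CPM. A change over time was not detectable at this depth, and the standard errors of its log2 fold changes against 0 h were 0.85 or more.

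Csgalnact1 (ENSMUSG00000036356; GRCm38 chr8:68356781-68735146, minus strand) encodes the enzyme that adds the first N-acetylgalactosamine and so commits the linker to chondroitin sulfate. The 0 h mice had 2.96, 5.33 and 6.24 CPM, the 14 d mice 20.1, 10.9 and 19.2 CPM, and the 21 d mice 25.0, 16.8 and 8.21 CPM. All mice at 3 d, 14 d and 21 d were above all mice at 0 h, and so were 5 of 6 at 7 d. The exception was 7 d replicate 3, which held 3 reads (0.554 CPM) against 9.32 to 19.7 CPM in the other 7 d mice. The log2 fold change was 1.80 ± 0.58 (SE) at 14 d (adjusted p = 0.161) and 1.80 ± 0.58 at 21 d (adjusted p = 0.147), so the change over the time course was called and neither single comparison was. Without 7 d replicate 3 it passed at 7 d (adjusted p = 0.0154, against 0.231 with it), 14 d (0.00936) and 21 d (0.00795), and the adjusted p over the time course in the 30 fits that left out 1 mouse each ran from 4.79e-05 to 0.0303.

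Elongation was represented by Chsy1 and Chpf, whose proteins work together as the polymerase that alternates both sugars. Chsy1 (ENSMUSG00000032640; GRCm38 chr7:66109515-66173798, plus strand) had 17.8, 15.0 and 10.4 CPM at 0 h, 33.9, 32.6 and 38.0 CPM at 14 d and 37.7, 36.2 and 36.6 CPM at 21 d. The 6 late mice were all above the 0 h mice, and the spread at 21 d was the narrowest of its time points (36.8 ± 0.761, SD, n = 3). Its lowest mean, 9.97 ± 5.36 CPM, was at 3 h, 3.70-fold under that at 21 d, and the difference from 0 h at 3 h did not pass (adjusted p = 0.560).

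Chsy1 rose by a log2 fold change of 1.27 ± 0.29 at 14 d (adjusted p = 0.0142) and 1.35 ± 0.29 at 21 d (adjusted p = 0.00705). At 7 d, where all 6 mice (19.9 lowest, 25.4 median and 35.4 CPM highest) were above all mice at 0 h, it was 0.91 ± 0.26 (adjusted p = 0.0547). The time course call held in all 30 fits that left out 1 mouse. That at 14 d was lost without 0 h replicate 2, 0 h replicate 3 or 14 d replicate 3, and that at 21 d without 0 h replicate 3. Within July to August mice the log2(CPM + 1) difference at 14 d was 1.61 (1 mouse against 1), and within November to January mice 1.06 (2 against 2).

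Chpf (ENSMUSG00000032997; GRCm38 chr1:75474569-75479307, minus strand) had 4.24, 4.37 and 4.80 CPM at 0 h, 11.8, 17.8 and 19.0 at 14 d and 17.2, 15.6 and 9.92 at 21 d. All 6 late mice were above all 0 h mice, but with log2 fold changes of 1.86 ± 0.65 (adjusted p = 0.228) and 1.67 ± 0.65 (adjusted p = 0.303) it did not pass. The 7 d mice ranged from 0 reads in replicate 3 to 10.9 CPM in replicate 1. Without 7 d replicate 3 the change over the time course passed (adjusted p = 0.0213, against 0.187 with it), and so did 14 d (0.0247) and 21 d (0.0440) against 0 h. The time course also passed with the title period as a covariate (0.0444). In TPM, Chsy1 was above Chpf in 28 of 30 mice.

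Chst3 and Chst11 sulfate the chain at different positions of the galactosamine. Chst3 (ENSMUSG00000057337; GRCm38 chr10:60181532-60219260, minus strand) encodes a 6-O-sulfotransferase, and Chst11 (ENSMUSG00000034612; GRCm38 chr10:82985498-83195900, plus strand) a 4-O-sulfotransferase. Chst11 rose while Chst3 had its highest mean at 0 h.

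Chst11 had 20.5, 16.2 and 22.2 CPM at 0 h, 57.2, 45.7 and 47.5 CPM at 14 d, and 33.0 lowest, 49.1 median and 59.1 CPM highest over the 6 mice at 7 d. All mice from 24 h on were above all mice at 0 h. It rose by a log2 fold change of 1.30 ± 0.22 at 7 d (adjusted p = 0.000884) and 1.35 ± 0.25 at 14 d (adjusted p = 0.00180), and both calls held in all 30 fits with 1 mouse left out. At 21 d the 3 mice had 42.0, 28.8 and 30.8 CPM (log2 fold change 0.79 ± 0.25, adjusted p = 0.125). Within July to August mice the log2(CPM + 1) difference at 7 d was 1.15 (2 mice against 1), and within November to January mice 1.29 (4 against 2), so that the rise was near the same size in both periods.

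Chst3 had 37.8, 35.7 and 26.7 CPM at 0 h and 16.2, 24.5 and 10.5 CPM at 24 h. All 3 mice at 24 h and all 6 at 7 d were below all 0 h mice. The log2 fold changes of -0.96 ± 0.27 at 24 h (adjusted p = 0.148) and -0.65 ± 0.23 at 7 d (adjusted p = 0.150) did not pass, and the adjusted p at 24 h ran from 0.0379 to 0.535 over the fits with 1 mouse left out. None of its 30 expected counts was whole within 0.005, the mark of reads that RSEM divided between this gene and others. Its level is an estimate in that respect. Chst11 (80.0% of counts whole) and Vcan (83.3%) held divided reads too. The lowest expected count of Chst3 was 44.1 in 3 h replicate 3, and the uncertainty that divided reads bring was not tested.

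Within a mouse, the ratio of Chst3 to Chst11 in TPM was lower in all 24 h mice than in all 12 h mice. The ratio was 1.09, 1.67 and 1.99 in the 0 h mice, up to 1.65 in the 12 h mice, all of them above 1, and 0.351, 0.530 and 0.619 in the 24 h mice. Chst3 exceeded Chst11 in 3 of 3 mice at 0 h, 2 of 3 at 3 h, 3 of 3 at 6 h and 3 of 3 at 12 h, and in no mouse from 24 h on. At 7 d the mean ratio was 0.412 ± 0.115 (SD, n = 6), at 14 d 0.417 ± 0.124 and at 21 d 0.625 ± 0.240. The ratio was set up after both genes had been seen and carries no test, and it compares transcripts and not sulfate on chains.

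**Figure D3:**
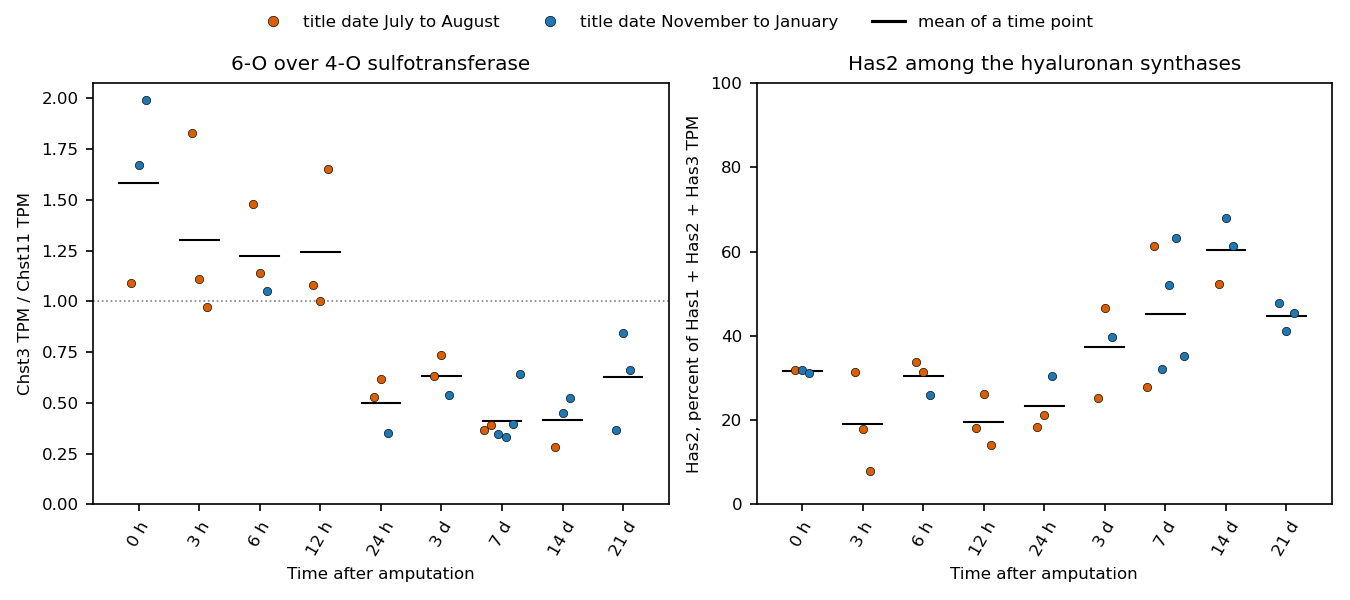
Left, TPM of Chst3 divided by that of Chst11 (vertical axis, dotted line at 1), and right, Has2 as a percentage of the summed TPM of Has1, Has2 and Has3, in each of 30 mice (points, coloured by period of the title date) by time after amputation, with black lines at the mean. No mouse from 24 h on is above 1 at left, and at right the 3 mice at 14 d lie between 52.3% and 67.9%.

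The stretch before the transcription start is shown for Chsy1 and Chst11, whose 9 means followed each other (Pearson r = 0.884, a description over 9 time points with shared libraries), and for Vcan, whose means did so less (r = 0.437 with Chsy1, 0.492 with Chst11). The 250 bases come from RefSeq on GRCm38.p6, which held 6 of the 10 genes (Chpf, Chsy1, Chst3, Chst11, Vcan and Has1). Each is written 5′ to 3′ on the gene's strand, at chr7:66109242-66109491 (plus), chr10:82985247-82985496 (plus) and chr13:89742513-89742762 (minus), with matches in capitals to GGGCGG or CCAAT on either strand (CCGCCC and ATTGG on the reverse).
Chsy1: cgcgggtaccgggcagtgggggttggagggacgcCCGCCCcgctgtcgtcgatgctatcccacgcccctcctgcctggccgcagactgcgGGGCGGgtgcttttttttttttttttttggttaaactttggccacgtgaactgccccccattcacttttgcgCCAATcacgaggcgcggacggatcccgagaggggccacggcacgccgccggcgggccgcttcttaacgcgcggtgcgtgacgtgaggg
Chst11: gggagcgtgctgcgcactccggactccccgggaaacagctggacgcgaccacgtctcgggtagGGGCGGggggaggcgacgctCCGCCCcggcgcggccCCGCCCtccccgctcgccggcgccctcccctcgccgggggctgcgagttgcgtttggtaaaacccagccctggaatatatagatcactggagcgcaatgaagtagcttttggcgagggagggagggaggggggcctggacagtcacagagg
Vcan: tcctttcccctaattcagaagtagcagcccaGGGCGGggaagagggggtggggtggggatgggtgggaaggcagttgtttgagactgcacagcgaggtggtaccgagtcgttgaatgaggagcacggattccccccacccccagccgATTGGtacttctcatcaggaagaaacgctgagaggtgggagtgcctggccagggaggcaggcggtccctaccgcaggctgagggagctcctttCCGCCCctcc
GGGCGG, the letters of a GC box, occurred 2 times before Chsy1, 3 times before Chst11 and 2 times before Vcan, and 32.7% of 32851 promoters of the same length hold it. CCAAT was met 1 time each before Chsy1 and Vcan (33.8% of promoters). TATAAA (12.4%) and TGANTCA, the letters of an AP-1 site (6.75%), were in none of the 6. A CpG was counted 30 times before Chsy1, 26 times before Chst11 and 10 times before Vcan, where the median promoter has 6. No match overlapped another, and a match is a description of letters only.

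Vcan (ENSMUSG00000021614; GRCm38 chr13:89655312-89742509, minus strand) encodes versican and was the most abundant of the genes, with a mean of 28.0 TPM over the mice. Its highest mean, 116 ± 40.9 CPM (SD, n = 3), was at 24 h, while those of the other called genes were at 14 d or 21 d. The 0 h mice had 37.3, 37.0 and 61.9 CPM, the 12 h mice 117, 128 and 86.4 CPM, the 24 h mice 146, 132 and 69.6 CPM and the 14 d mice 109, 82.2 and 106 CPM. Every mouse at 12 h, 24 h and 14 d was above every mouse at 0 h, whereas 7 d and 21 d overlapped 0 h. Within July to August mice the log2(CPM + 1) difference of Vcan from 0 h was largest at 24 h (1.16, 2 mice against 1). There it was 0.80 at 12 h (3 against 1) and 0.81 at 14 d (1 against 1). Within November to January mice it was largest at 14 d (1.30, 2 against 2), with 0.89 at 24 h (1 against 2).

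The log2 fold change of Vcan was 1.28 ± 0.34 at 12 h (adjusted p = 0.185), 1.36 ± 0.34 at 24 h (adjusted p = 0.0780) and 1.13 ± 0.34 at 14 d (adjusted p = 0.109), so only the test over all time points passed. That call was lost (adjusted p up to 0.0786) without any 1 of 11 mice, namely 0 h replicates 1 and 2, 3 h replicates 2 and 3, 6 h replicate 3, 12 h replicates 1 and 2, 24 h replicates 1 and 2, and 14 d replicates 1 and 3.

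Vcan also differed between the title periods at equal time point. In the fit with time point and period, where a test of the period was added after seeing the data, it was lower in November to January by a log2 fold of -0.77 ± 0.12 (SE, adjusted p = 2.79e-05), in a test that called 24.1% of all genes. In CPM all November to January mice were below all July to August mice at 6 of 6 time points that hold both, and in TPM at 5 of 6. At 7 d, for example, the 2 July to August mice had 100 and 129 CPM and the 4 others 48.9, 65.7, 61.9 and 48.4 CPM. None of the other 9 genes passed, and Chpf came nearest (-0.80 ± 0.35, adjusted p = 0.0966).

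With the period as a covariate, the F-test of Vcan gave an adjusted p of 0.000118, and it passed against 0 h at 24 h, 7 d, 14 d and 21 d. A test for a time course that differs between the periods, also added after seeing the data, over 21 mice at 6 time points, called none of the 10 genes (0.883% of 13587 genes tested), with adjusted p from 0.530 for Chst3 to 0.992 for Csgalnact1. Of the 10 genes 0 had an unadjusted p under 0.05 there, and DESeq2 was not run for it. Summed fibroblast markers had a lower mean in November to January at 5 of the 6 time points, leukocyte markers at 4, chondrocyte and osteoblast markers at 3 and keratinocyte markers at 2. Their part in the difference of Vcan, and that of depth, was not tested.

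**Figure D4:**
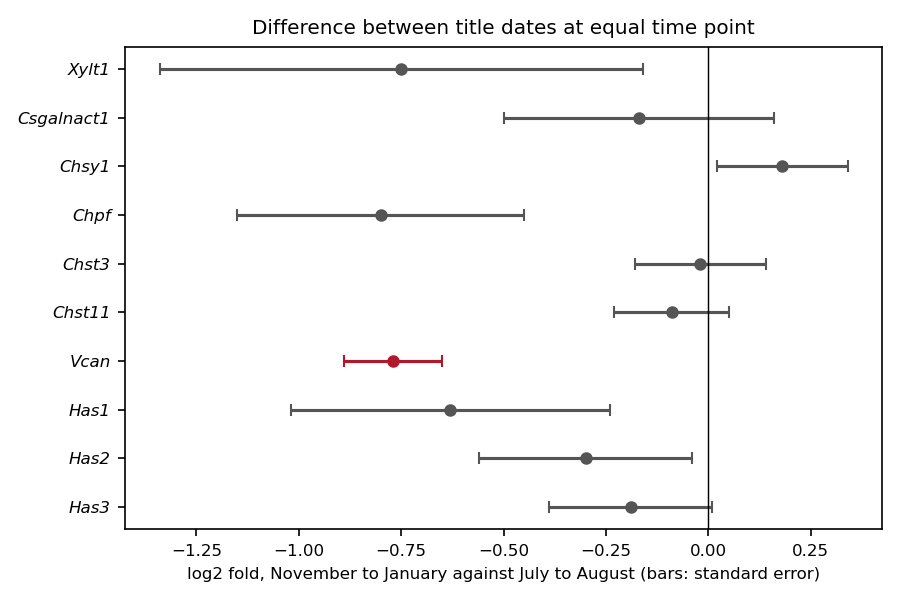
Log2 fold (points) with its standard error (bars) of the 10 genes between mice with November to January and July to August titles, in the edgeR fit with time point and period. Vcan, in red, is the only gene past an adjusted p of 0.05, at -0.77.

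The 3 hyaluronan synthases are separate genes for the same reaction, and their highest means fell at different times: Has1 at 3 h, Has3 at 12 h and Has2 at 14 d. Of the 3, only Has2 passed over the time course, and a difference between their courses was not tested.

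Has1 (ENSMUSG00000003665; GRCm38 chr17:17843323-17855205, minus strand) had 1.36, 3.20 and 7.52 CPM at 0 h, 4.48, 5.81 and 13.4 at 3 h and 0.353, 1.44 and 3.21 at 14 d. These groups overlapped, and libraries held 2 to 67 reads. Its means spanned 4.73-fold, with log2 fold changes against 0 h of 0.97 ± 0.67 at 3 h (adjusted p = 0.619) and -1.18 ± 0.68 at 14 d (adjusted p = 0.700). The 3 h mice all had July to August titles. Within that period the log2(CPM + 1) difference of Has1 at 3 h was -0.07 (3 mice against 1), against 0.89 over all mice. At 14 d it was -2.65 within July to August (1 against 1) and 0.03 within November to January (2 against 2). The July to August mouse, 14 d replicate 1, held 2 reads of Has1 (0.353 CPM), where 3 reads would be 0.529 CPM. The value of -2.65 thus rests on a count under the limit of 3 regarded as measurable.

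Has3 (ENSMUSG00000031910; GRCm38 chr8:106870242-106884566, plus strand) had 10.0, 7.67 and 16.0 CPM at 0 h and 28.9, 29.5 and 31.9 CPM at 12 h. All mice at 6 h, 12 h and 24 h were above all mice at 0 h, and its level at 12 h varied little (30.1 ± 1.59, SD, n = 3). The log2 fold change at 12 h was 1.43 ± 0.37 (adjusted p = 0.151), and it passed with DESeq2 and in a fit of these 2 time points alone. The 12 h mice all had July to August titles. Within that period the log2(CPM + 1) difference of Has3 at 12 h was 0.87 (3 mice against 1), against 1.41 over all mice. Its exons share 352 bases with Chtf8 on the opposite strand, a gene with a mean of 52.0 CPM. The strand used in counting is not given in the sources used here, so that reads there could belong to either. The same limit holds for Has2, which shares 182 bases with Has2os, and for Chsy1, which shares 148 bases with Gm26827. Both of these lie on the opposite strand and neither is in the count table.

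Has2 (ENSMUSG00000022367; GRCm38 chr15:56665627-56694539, minus strand), the synthase known to be needed in the embryo, had 4.64, 5.44 and 12.5 CPM at 0 h, 17.8, 27.6 and 36.7 CPM at 14 d and 23.4, 13.1 and 9.92 CPM at 21 d. Every mouse at 14 d was above every mouse at 0 h, and at 21 d 2 of 3 were. It rose by a log2 fold change of 1.89 ± 0.48 at 14 d (adjusted p = 0.0358). That call was lost without 0 h replicate 1, 0 h replicate 2, 14 d replicate 2 or 14 d replicate 3, with values of 1.60 to 2.46 over all fits with 1 mouse left out, and the call over the time course was lost without 14 d replicate 2 or 3 (adjusted p up to 0.0937). The 0 h mouse of July to August was its highest at 0 h, and within that period the log2(CPM + 1) difference at 14 d was 0.48 (1 mouse against 1), against 2.45 within November to January (2 against 2).

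As a share of the summed Has TPM, Has2 made up 31.6% ± 0.408 at 0 h (SD, n = 3), 19.5% ± 6.21 at 12 h, 45.3% ± 15.5 at 7 d (n = 6), 60.5% ± 7.85 at 14 d and 44.8% ± 3.34 at 21 d. It was the highest of the 3 in no mouse through 24 h, in 1 of 3 at 3 d, 3 of 6 at 7 d, 3 of 3 at 14 d and 2 of 3 at 21 d. Has3 held 54.9% ± 10.0 at 12 h, and Has1 fell to 6.74% ± 4.41 at 14 d from 39.4% ± 9.31 at 3 h. The Has1 share at 14 d includes replicate 1, whose 2 reads of Has1 were under the limit of 3 counts. The sum of the 3 was 12.2 ± 7.53 TPM at 0 h, 22.4 ± 4.79 at 12 h and 23.3 ± 6.87 at 14 d, with overlap between 0 h and both later groups.

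Ordered by TPM, Vcan led at 0 h (15.5 ± 4.30) before Chst3 (11.6 ± 1.55), Chst11 (7.59 ± 1.48) and Chsy1 (7.31 ± 1.62), and Xylt1 was last (1.03 ± 0.324). The ranges of Vcan and Chst3 overlapped, and those of Chst3 and Chst11 did not. Neighbours from Chst11 downwards overlapped in their ranges, apart from Xylt1, which lay under Csgalnact1 (1.65 to 3.56). At 21 d the order was Vcan (20.6 ± 8.52), Chsy1 (17.6 ± 0.386), Chst11 (12.1 ± 2.02), Chpf (9.81 ± 2.56) and Csgalnact1 (8.88 ± 4.55), with Chst3 now sixth. The summed TPM of the 6 enzymes of the chain was 33.5 ± 1.41 at 0 h, 69.6 ± 4.82 at 14 d and 56.7 ± 7.32 at 21 d, with all late mice above the 0 h mice (32.3 to 35.1). The sum carries no test, 2 of the 6 passed at 14 d and 1 at 21 d, and the TPM of Chst3, which did not pass, was 8.12 at 14 d.

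Genes whose 9 means were most like those of a member were sought among 13179 genes of at least 1 CPM, as a description. Csgalnact1 was followed by Maged1 (Pearson r = 0.996), Mrc2 (0.983), a collagen uptake receptor, and Mmp2 (0.976), a gelatinase. Chsy1 was nearest to Ms4a7 (0.980), Pdia5 (0.969) and Cmtm3 (0.965), and Chst11 to Hgsnat (0.979), Bfar (0.964) and Clec4n (0.951). Has2 was nearest to Abhd8 (0.948), Vcan to Map4k3 (0.958), Chpf to Lhfpl2 (0.979), Has3 to Zfx (0.946), Has1 to Acat1 (0.970), Chst3 to Ezh1 (0.945) and Xylt1 to Rnf24 (0.904). Hgsnat, Bfar, Abhd8, Map4k3, Zfx, Acat1, Ezh1 and Rnf24 were themselves not called over the time course. Their adjusted p in the F-test ran from 0.0508 for Ezh1 to 0.864 for Map4k3. Even Xylt1, which did not pass, had a best match of 0.904 among the 13179 genes.

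The wider pathway was covered by 7 lists of 100 other genes, of which 87 were tested and 19 changed over the time course (21.8%, against 9.01% of all genes). Of the other chondroitin and dermatan sulfate enzymes 0 of 15 were called by edgeR, with 4 at an unadjusted p under 0.05. DESeq2, which called more of all genes than edgeR, called 3 of them. Fam20b, the linker kinase and the most abundant of these enzymes, had 102 ± 8.02 CPM at 0 h and log2 fold changes of -0.34 to -0.06.

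Sugar and sulfate donors had 2 of 17 called. Gfpt1, the first step of hexosamine supply, had 38.8 ± 0.838 CPM at 0 h and 69.6 ± 3.67 at 14 d (log2 fold change 0.84, adjusted p = 0.0373). Uap1, which makes UDP-N-acetylglucosamine, had its high means at 3 h (98.4 ± 29.8 CPM) and 24 h (101 ± 22.0 CPM), against 55.3 ± 5.62 at 0 h. Heparan sulfate enzymes had 3 of 18 called. The polymerase Ext1 rose from 40.5 ± 3.69 CPM at 0 h to 81.7 ± 24.9 at 7 d (adjusted p = 0.00964) and 78.7 ± 10.9 at 21 d (adjusted p = 0.0334), and Sulf1, a sulfatase of the cell surface, at 21 d (1.36, adjusted p = 0.0250). Sulf2, its relative, had 47.0 ± 0.803 CPM at 0 h, its highest mean at 12 h (79.3 ± 14.7) and its lowest at 21 d (34.7 ± 3.90), and passed over the time course alone.

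Of the other core proteins 3 of 10 were called. Acan, which encodes aggrecan of cartilage, rose from 32.5 ± 1.75 CPM at 0 h to 115 ± 38.4 at 14 d and 217 ± 48.6 at 21 d (log2 fold changes 1.82 and 2.74, adjusted p = 0.0145 and 0.000230). Bgn (biglycan) had 210 ± 9.65 CPM at 0 h and 698 ± 149 at 14 d (adjusted p = 0.0513). Bcan (brevican) was scarce, with 0.347 ± 0.122 CPM at 0 h, 0 reads at 6 h to 3 d and 4.25 ± 1.41 CPM at 14 d. Of the hyaluronan binding genes 3 of 9 were called. Tnfaip6, which encodes the hyaluronan binding TSG-6, rose from 2.74 ± 1.44 CPM at 0 h to 28.1 ± 2.92 at 24 h (log2 fold change 3.40, adjusted p = 0.00369) and passed at each later time. Hapln1, a link protein, had 4.51 ± 1.28 CPM at 0 h and 36.9 ± 16.9 at 21 d (adjusted p = 0.0513), and the receptor Cd44 had its highest mean at 6 h (496 ± 82.5 CPM), against 296 ± 92.5 at 0 h.

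Breakdown enzymes had 5 of 12 called. Gusb (beta-glucuronidase) rose from 17.1 ± 2.09 CPM at 0 h to 62.4 ± 14.2 at 7 d (log2 fold change 1.87, adjusted p = 0.000149), and Arsb, the 4-sulfatase of the lysosome, from 9.93 ± 1.76 to 80.2 ± 76.3 CPM (3.00, adjusted p = 0.00362). Hexa and Galns, also lysosomal hydrolases, passed over the time course. Of the proteases that cleave versican 3 of 6 were called. Adamts4 rose from 6.17 ± 3.33 CPM at 0 h to 60.7 ± 42.6 at 3 h (3.33, adjusted p = 0.00698) and passed at each later time except 12 h. Adamts9 passed at 3 h (1.69, adjusted p = 0.0444) and at all later times but 6 h, 12 h and 21 d. Adamts1 had 56.7 ± 44.5 CPM at 0 h and 183 ± 89.7 at 3 h (adjusted p = 0.113). Adamts4 and Adamts9 thus passed at 3 h, where Vcan had a log2 fold change of 0.16 ± 0.34. At 3 h, 0 of all genes tested were called without 0 h replicate 1 or without 0 h replicate 2. Without 3 h replicate 2 the 1 gene called was lower than at 0 h. Both protease calls at 3 h were therefore lost in each of these fits.

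**Figure D5:**
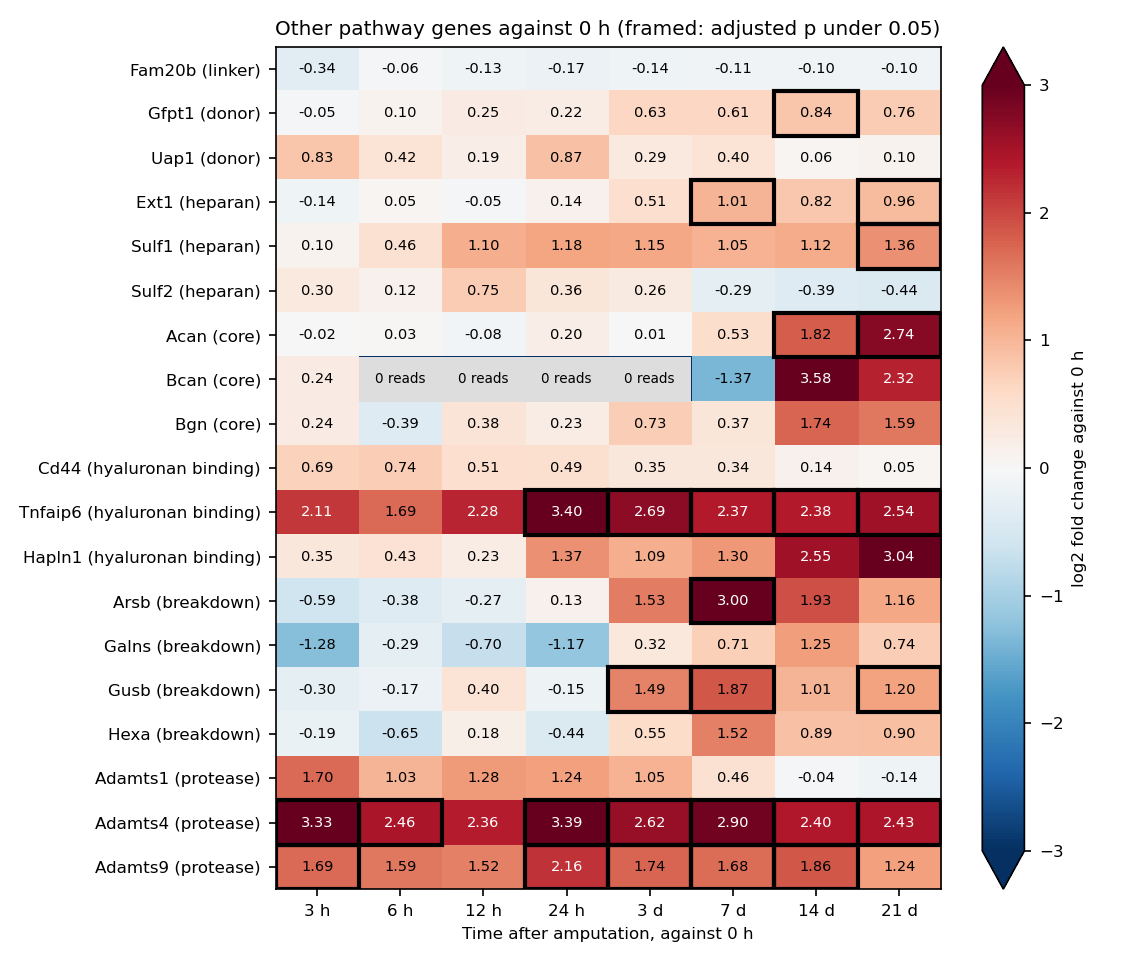
Log2 fold change against 0 h (colour and printed number) of 19 other genes of the pathway (rows, with their list in brackets) at 8 later time points (columns), with a frame where the adjusted p was under 0.05 and grey where all mice of a time point had 0 reads. Adamts4 is framed at 7 of the 8 time points, Tnfaip6 from 24 h on and Acan at 14 d and 21 d.

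Cell type markers were summed over the same times, and the sums carry no test. Summed fibroblast markers (9 of 9 genes found) ranged from 2424 to 4296 TPM at 0 h, 16048 to 18037 at 14 d and 13393 to 22427 at 21 d, with 3 of 9 genes called at 14 d and 4 at 21 d. The collagen genes Col1a1, Col1a2 and Col3a1, which osteoblasts express as well, make up most of this sum, and Pdgfra, Dpt and Pi16 were not called over the time course (adjusted p = 0.424, 0.195 and 0.146). Osteoblast markers (9 of 9) ranged from 367 to 610 at 0 h and from 3251 to 3923 at 21 d. Ibsp and Spp1 had the highest mean TPM of this list (814 and 502), and 8 of its 9 genes were called over the time course. Dmp1 was not (adjusted p = 0.148), and Bglap2 had its highest mean at 3 h. Leukocyte markers (10 of 10) ranged from 126 to 180 TPM at 0 h, 513 to 1131 at 7 d and 679 to 823 at 14 d. At 21 d they ranged from 129 to 538 and overlapped 0 h. Of the 10 leukocyte genes 5 were called over the time course. Lyz2, Cd68 and Tyrobp were among those not called (adjusted p = 0.175, 0.163 and 0.451). Keratinocyte markers (8 of 8) ranged from 66320 to 71279 at 0 h, 35441 to 44981 at 14 d and 31111 to 59184 at 21 d. Their range at 3 h, 44094 to 83305, held that at 0 h. Krt10 and Krt1 had the highest mean TPM of this list (19441 and 15505). Both were not called over the time course (adjusted p = 0.182 and 0.269), and only 1 of the 8 genes, Krt15, was. Chondrocyte markers (9 of 10) went from 152 to 226 at 0 h to 261 to 379 at 21 d. Comp and Sox9 had the highest mean TPM of the chondrocyte list (105 and 40.4). They were not called over the time course (adjusted p = 0.337 and 0.374), while 6 of the 8 chondrocyte genes tested were. The 14 d and 21 d levels of Csgalnact1, Chsy1, Chpf, Chst11 and Has2 stand beside these sums, and the part of cell composition in them was not tested.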

How the data were processed

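Poly(A) RNA of digit 3 of 30 mice was sequenced as single reads of 65 bases after 18 cycles of PCR. The authors mapped reads to Ensembl release 75 genes (mm10) with Bowtie 0.12.8, allowing 2 mismatches and 200 hits, and estimated expected counts and TPM with RSEM 1.2.3. Reads of similar genes are therefore divided by estimate. The deposited expected counts are not normalized, and 78.1% were whole within 0.005. The deposited TPM are relative to all genes of a mouse. The authors also deposited a signal, median-by-ratio scaled TPM averaged by time point, which was used only as an alternative unit for the levels.

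Expected counts were rounded and tested in R 4.3.3 with edgeR 4.0.16 (TMM, filterByExpr by time point, quasi-likelihood tests, Benjamini-Hochberg over 13793 of 20321 genes, threshold 0.05). The kept genes hold 99.95% of counts. All 30 mice entered 1 fit, with no covariate. DESeq2 1.42.0 and other alternatives are given in the closing section. Tables and plots used Python 3.11.15, numpy 2.4.6, pandas 2.3.3 and matplotlib 3.10.9, and the fits were tested on simulated data. Coordinates are those of GENCODE M21. Below 3 counts a gene was regarded as not measurable, a limit that reflects counting error alone. No 2 mice of a time point were alike within sampling noise (chi-square per degree of freedom of at least 10.3 in 39 pairs). Replicates are separate mice.

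The 10 genes and all lists were chosen with earlier results of these data known. Named were the 10 genes, in each pathway list up to 4 genes of smallest p among those passing over the time course or else the gene of highest TPM, and the 3 genes most like each member. A result of the breakdown list is not reported here.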

Additional observations from a re-analysis of the deposited data

Results flagged for a closer look

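In groups of 4 to 10 mice, which here means 7 d, the gap of the highest and of the lowest mouse to its neighbour was compared with the range of the group for 13 measures, and 2 exceeded Dixon's critical value of 0.625 for 6 mice, where chance gives about 1 in 20. The ratio of Chst3 to Chst11 TPM was highest in 7 d replicate 6, at 0.641 against 0.332 to 0.394 in the others, and its gap was 0.799 of the range. The number of genes with a count was lowest in 7 d replicate 3, at 12191 against 13937 to 14830, and its gap was 0.662 of the range. Both mice were left feet with November to January titles, and the reason was not tested.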

How the results depend on the processing

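No called result changed direction, while small fold changes that were not called could cross 0 with 1 mouse left out (Has2 at 3 h, log2 -0.48 to 0.35). Of the values examined under alternatives other than leaving out 1 mouse, 22 counts moved by more than 1.5 times and 131 did not. Members called over the 9 time points numbered 2 at a threshold of 0.01, and 3 to 6 with 1 mouse left out, the lowest without 14 d replicate 3. At 12 h, 2 passed (Has3 and Vcan) with DESeq2 and with the mice of the 2 time points alone. At 24 h, 1 passed (Vcan) with the title period as a covariate, without left-foot mice, without the 2 libraries of lowest size factor (an alternative chosen after seeing the data) and with DESeq2. With 1 mouse left out it was 0 to 1, with Chst3 called without 24 h replicate 2 and Vcan without 24 h replicate 3 or 7 d replicate 2. At 7 d, 2 passed with DESeq2 size factors, a filter of 1 CPM in 3 mice and DESeq2 (Chst11 and Chsy1), and 3 with the period (with Vcan) and without the 2 libraries (with Csgalnact1), with 1 to 3 over the mice left out. It was 2 (Chst11 and Chsy1) without 3 h replicate 2 or 3, 6 h replicate 1 or 2, 12 h replicate 1, 24 h replicate 1, 2 or 3, or 7 d replicate 1 or 2, and 3 without 7 d replicate 3. At 14 d the count was 1 at 0.01, 5 without left-foot mice or the 2 libraries and 6 with 2 time points alone, and 1 to 5 with 1 mouse left out, with 1 (Chst11) without 0 h replicate 2 or 14 d replicate 3. At 21 d it was 2 with the period or without left-foot mice and 3 without the 2 libraries or with 2 time points alone, and 0 to 3 with 1 mouse left out, with 0 without 0 h replicate 3. Without 7 d replicate 3 the counts at 14 d and 21 d were 5 and 3. The counts over all genes moved too. At 24 h the main fit called 68 of 13793, that with the period 88, that without left-foot mice 96 of 13718 and that without the 2 libraries 86 of 14101. At 7 d these were 323, 528, 362 and 390. At 14 d they were 222, 345, 293 and 311, with 111 at 0.01. At 21 d they were 268, 399, 320 and 345. All-gene counts of the other alternatives at single time points are not given here. Over the 9 time points, 604 of all genes were called at 0.01 and 2496 by DESeq2, against 1243, and 952 to 1671 with 1 mouse left out. The cause of these moves was not tested. No paired analysis was possible because each mouse gave 1 time point and the labels give no replicate numbers. A further mark in the titles recurs at some time points, with a meaning not given in the sources used here, and was not used to pair mice. With 3 mice at most time points, changes of scarce genes such as Xylt1 and Has1 are not resolved, and expected counts of genes that share reads are estimates.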
